A study of Mus musculus with 4 samples.

Results

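The replication-dependent histone genes were taken as every row of the deposited tables named as an H1 gene (H1f1 to H1f5), a clustered H2A, H2B, H3 or H4 gene (H2ac, H2bc, H3c and H4c names), or by the older Hist names. This rule found 65 of the 55382 genes listed: 5 H1, 19 H2A, 17 H2B, 12 H3 and 12 H4 genes. Ribosome profiling, which sequences the stretches of mRNA that ribosomes shield from nuclease, was applied to hearts of mice killed 15 days after birth. There were 2 libraries from hearts with a conditional knockout of Nat10 (NAT10-CKO, labelled KO) and 2 from NAT10-FF hearts (labelled WT). All 4 came from frozen heart tissue lysed with cycloheximide, a drug that stalls elongating ribosomes, and all carried the same batch label. No source used here gives the Cre line behind the knockout, the strain, or whether the replicates were separate animals. Every p-value thus reflects the spread of these 4 libraries alone, and that spread may be technical. NAT10 is an acetyltransferase that modifies cytidines in RNA, and the series was set up to find the ribosome-bound mRNAs associated with it in the heart.

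Histones package DNA. H2A, H2B, H3 and H4 form the protein core of the nucleosome, and H1 binds the DNA where it enters and leaves that core. The replication-dependent genes lie in clusters as many near-identical copies, lack introns, and supply histones while a cell copies its DNA. Their mRNAs end in a stem-loop held by the stem-loop binding protein Slbp instead of a poly(A) tail. The heart of a mouse pup still holds dividing cells, and cardiomyocytes leave the cell cycle in the first weeks after birth.

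RefSeq tables on GRCm38.p6, the build of the authors' processing (GRCm38, mm10), matched 64 of the 65 genes by symbol or synonym. Of these, 54 lie on chromosome 13 and 10 on chromosome 3. A promoter sequence was listed for 57 genes. The 250 bases before the transcription start are shown for the gene with the highest mean footprint level of each core and linker family, and for H1f2, the histone gene with the highest implied RNA level in KO. Capitals mark matches, on either strand, to the letters TATAAA of the TATA box, to the promoter element CCAAT, to ATTTGCAT, an octamer known from H2B promoters, or to AAACACA, the AC box of H1 promoters. The windows are, in GRCm38.p6, chr13:21780626-21780875 (minus strand) for H1f5, chr3:96220881-96221130 (minus strand) for H2ac20 and chr3:96269450-96269699 (plus strand) for H2bc18. Those of the other genes are chr13:23752095-23752344 (plus strand) for H3c2, chr13:23530794-23531043 (plus strand) for H4c8 and chr13:23738557-23738806 (plus strand) for H1f2.
H1f5: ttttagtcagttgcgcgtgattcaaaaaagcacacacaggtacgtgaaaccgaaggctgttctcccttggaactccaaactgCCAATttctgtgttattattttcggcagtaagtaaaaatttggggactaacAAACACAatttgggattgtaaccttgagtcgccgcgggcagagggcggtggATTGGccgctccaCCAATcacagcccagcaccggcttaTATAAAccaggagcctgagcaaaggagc
H2ac20: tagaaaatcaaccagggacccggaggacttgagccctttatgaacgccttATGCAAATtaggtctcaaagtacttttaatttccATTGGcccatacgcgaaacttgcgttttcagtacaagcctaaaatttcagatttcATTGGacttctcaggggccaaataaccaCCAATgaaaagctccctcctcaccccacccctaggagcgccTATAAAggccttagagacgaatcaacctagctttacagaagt
H2bc18: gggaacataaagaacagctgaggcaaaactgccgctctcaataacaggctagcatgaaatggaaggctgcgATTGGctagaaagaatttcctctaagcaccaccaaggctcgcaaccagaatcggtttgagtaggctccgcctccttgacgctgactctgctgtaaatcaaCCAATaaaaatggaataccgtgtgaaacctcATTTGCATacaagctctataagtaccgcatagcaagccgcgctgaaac
H3c2: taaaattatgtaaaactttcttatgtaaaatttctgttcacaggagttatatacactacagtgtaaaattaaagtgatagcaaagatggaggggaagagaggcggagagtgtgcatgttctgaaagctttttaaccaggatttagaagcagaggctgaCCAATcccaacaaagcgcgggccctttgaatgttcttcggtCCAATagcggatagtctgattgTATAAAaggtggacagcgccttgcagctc
H4c8: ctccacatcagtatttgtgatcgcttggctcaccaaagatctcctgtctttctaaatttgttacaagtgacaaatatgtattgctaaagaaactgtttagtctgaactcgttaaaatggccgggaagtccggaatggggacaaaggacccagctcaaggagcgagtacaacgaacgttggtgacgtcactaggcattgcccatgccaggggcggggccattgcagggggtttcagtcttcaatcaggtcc
H1f2: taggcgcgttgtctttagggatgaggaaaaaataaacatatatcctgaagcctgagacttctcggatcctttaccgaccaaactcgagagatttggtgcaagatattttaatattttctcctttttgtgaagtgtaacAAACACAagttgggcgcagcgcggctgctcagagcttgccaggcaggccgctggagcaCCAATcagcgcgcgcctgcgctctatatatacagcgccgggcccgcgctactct

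CCAAT, or its reverse complement ATTGG, was in 47 of the 57 histone windows (82.5%), against 33.8% of all 32851 listed promoters. It was in all 5 H1, all 16 H2A and all 15 H2B windows, in 8 of 10 H3 windows and in 3 of 11 H4 windows. TATAAA was in 28 of the 57 (49.1%), against 12.4% of all promoters. The octamer was in 12 (21.1%), against 1.6% of all promoters: 6 of 16 H2A and 6 of 15 H2B windows, and no H1, H3 or H4 window. AAACACA was in 4 of the 5 H1 windows, and in 8 of the 57 (14.0%) against 6.25% of all promoters. The window of H4c8, the highest H4 gene, held none of these letters. Each motif was counted by itself, also where matches of different motifs overlap, and a match is a description of the sequence, not a measured binding site.

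The first deposited table gives footprint levels as FPKM, which corrects for gene length and library total, and the second gives the translation efficiency (TE), the footprint level over the RNA level of the same gene. Dividing FPKM by TE returned the RNA level, here called the implied RNA level. Summed over all tested genes the libraries held 7.66e+06 and 8.73e+06 FPKM in KO and 7.70e+06 and 7.04e+06 FPKM in WT, and the depth in reads is unknown. Nat10 itself had 40.0 and 52.1 FPKM in KO and 77.3 and 73.9 FPKM in WT, with both KO libraries below both WT libraries (log2 change -0.71, SE 0.30, adjusted p = 0.295). The libraries labelled KO thus kept footprints on Nat10. The labels call the cells cardiomyocytes, while the protocol describes whole heart tissue. All 6 cardiomyocyte markers followed (Myh6, Tnnt2, Actc1, Myl2, Ryr2, Pln) were present, and so were markers of fibroblasts, endothelial cells, macrophages and red blood cells.

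WT replicate 2 stood apart from the other libraries, and every footprint comparison of the histone genes includes it. It was the lowest library for 43 of the 49 histone genes tested, against 41.26% of all tested genes. On the log2(FPKM + 1) scale, WT replicate 1 exceeded WT replicate 2 by a median of 1.56 over the histone genes and by 0.13 over all tested genes. The difference was above 1 for 35 of the 49 histone genes, against 11.58% of all tested genes. WT replicate 2 also had the most footprints on 2 major histocompatibility genes: H2-K1 had 327 and 250.3 FPKM in KO and 188 and 1967 FPKM in WT, and H2-D1 had 352 and 404 FPKM in KO and 232 and 1966 FPKM in WT. The log2 changes of histone footprint levels are therefore given with and without this library.

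All 65 genes are accounted for as follows. A filter of at least 1 FPKM in at least 2 of the 4 libraries kept 49: 5 H1, 12 H2A, 13 H2B, 8 H3 and 11 H4 genes. Of these 49, H2bc8, H2bc13 and Hist1h2an passed through the KO libraries alone, so that they had to read higher in KO. No gene passed through WT alone. Another 13 genes were listed at 0 in every library: H2ac1, H2ac14, H2ac18, H2ac19, Hist1h2al, Hist1h2ao and Hist1h2ap of H2A, H2bc1, Hist1h2bq and Hist1h2br of H2B, and H3c10, H3c14 and H3c15 of H3. Of these, RefSeq lists H2ac14 as a pseudogene and Hist1h2al as a transcribed pseudogene, and both were taken in by name alone. H2ac1 and H2bc1 are known as the testis-specific H2A and H2B genes. The other 3 genes, H3c6, H4c9 and Hist1h2bp, were above 0 but under the filter. Copies above 0 numbered 52 and 50 in the KO libraries and 49 and 42 in the WT libraries. The KO counts include H2bc8, H2bc13 and Hist1h2an. Over all listed genes, 16442 and 16542 were above 0 in KO and 16900 and 16425 in WT.

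Some genes listed at 0 resemble another copy in the promoter window, and the coding sequences of the copies were not compared here. The promoter windows of Hist1h2bq and Hist1h2br were identical over all 250 bases, and both genes were at 0. Those of H3c14 and H3c15 were 88.0% identical, and both were at 0. The pair Hist1h4m and Hist1h4n, with 99.2% identical windows, did have footprints. Reads that fit several copies may have been split or dropped in the authors' counting, which is not described in the sources used here, so a 0 in one copy is not a measured absence and single copies are less certain than family sums.

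Summed over each family, footprint levels were highest in KO replicate 1 and lowest in WT replicate 2. The H1 genes summed to 639.5 and 506 FPKM in KO and 373 and 115 FPKM in WT, a ratio of the KO mean to the WT mean of 2.35. The H2A genes summed to 502 and 250.2 FPKM in KO and 265 and 91.5 FPKM in WT (2.11), and the H2B genes to 943 and 517 FPKM in KO and 486 and 121 FPKM in WT (2.40). KO replicate 2 and WT replicate 1 thus lay close together for H2A and H2B. The H3 genes summed to 212 and 162 FPKM in KO and 130.3 and 35.3 FPKM in WT (2.26). The H4 genes summed to 897 and 549.6 FPKM in KO and 565 and 276 FPKM in WT, the smallest ratio of the 5 families (1.72). Both KO sums exceeded both WT sums for H1, H2B and H3, but not for H2A and H4. Over all 65 genes the sums were 3194 and 1985 FPKM in KO and 1819 and 638 FPKM in WT, with means of 2589 ± 855 in KO and 1229 ± 835 in WT (SD, n = 2 each). With 2 libraries a group, an exact permutation test of such a sum cannot go below p = 0.333. In bulk tissue, a different number of cells that make histones and a different amount of histone mRNA on ribosomes per cell cannot be told apart.

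**Figure D1:**
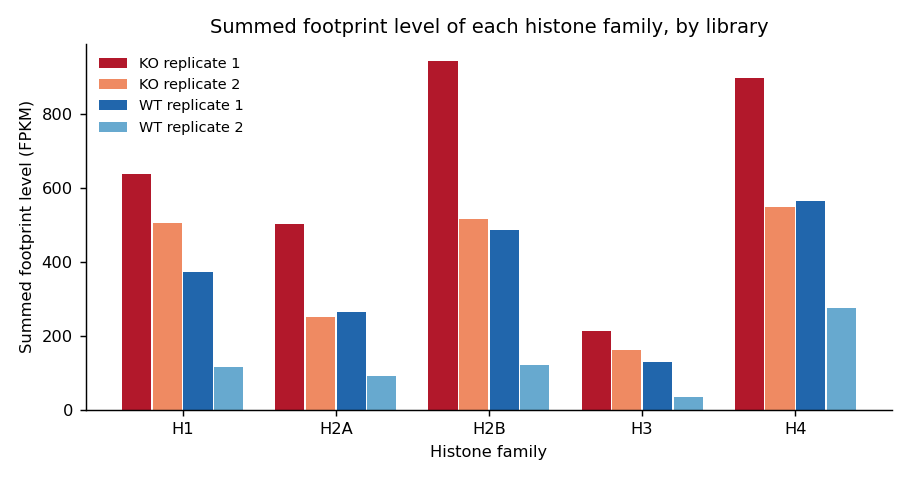
Summed footprint level in FPKM (vertical axis, from 0) of the H1, H2A, H2B, H3 and H4 genes, with 1 bar per library and the KO libraries left of the WT libraries. In every family KO replicate 1 is the tallest bar and WT replicate 2 the shortest, while KO replicate 2 and WT replicate 1 are close for H2A, H2B and H4.

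No histone gene passed the test of footprint levels between KO and WT (limma with a trend on log2(FPKM + 1), adjusted p under 0.05 over all 15031 tested genes). The background was 0.253% of tested genes called higher and 0.126% called lower in KO. The counts that follow leave out H2bc8, H2bc13 and Hist1h2an, whose direction the filter set, and likewise every other tested gene kept through 1 group alone, which left 46 histone genes of 14395 genes. The lowest adjusted p among the 46 was 0.156, for H4c4. At an unadjusted p under 0.05, 9 of 46 read higher in KO, against 12.4% of the 14395 genes, and none read lower, against 3.15%. The log2 change was positive for 44 of 46, against 71.1% of genes, and its median was 1.19, against 0.35. Without WT replicate 2 the median was 0.32 for the histone genes and 0.24 for all genes so kept. In that setting 35 of 46 histone genes were positive, a count given without the share over all genes.

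Taken pair by pair, the libraries differed unequally over these 46 genes. KO replicate 1 exceeded WT replicate 1 by a median log2 difference of 0.64 over the histone genes, with 38 of 46 higher. Over the 14395 genes the median was 0.12, with 8245 higher. Between KO replicate 2 and WT replicate 1 the median difference was 0.059 over the histone genes, with 25 of 46 higher. Over the 14395 genes it was 0.39, with 9976 higher, so the histone median was the smaller in this pair. Both KO libraries were far above WT replicate 2, by 2.21 for KO replicate 1 and 1.66 for KO replicate 2, with 44 of 46 higher in each case. Over the 14395 genes the medians were 0.30 and 0.55, with 9257 and 10498 higher. KO replicate 1 minus KO replicate 2 was 0.51 over the histone genes and -0.27 over the 14395 genes, and the histone value is larger than that between KO replicate 2 and WT replicate 1. Both KO libraries exceeded both WT libraries for 23 of 46 genes (50.0%), against 38.2% of the 14395 genes, and both lay below for H2bc15 and H2bc21 (4.35%), against 11.4%. By family, both KO libraries lay above for all 5 H1 genes, 5 of 11 H2A, 4 of 11 H2B, 5 of 8 H3 and 4 of 11 H4 genes.

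**Figure D2:**
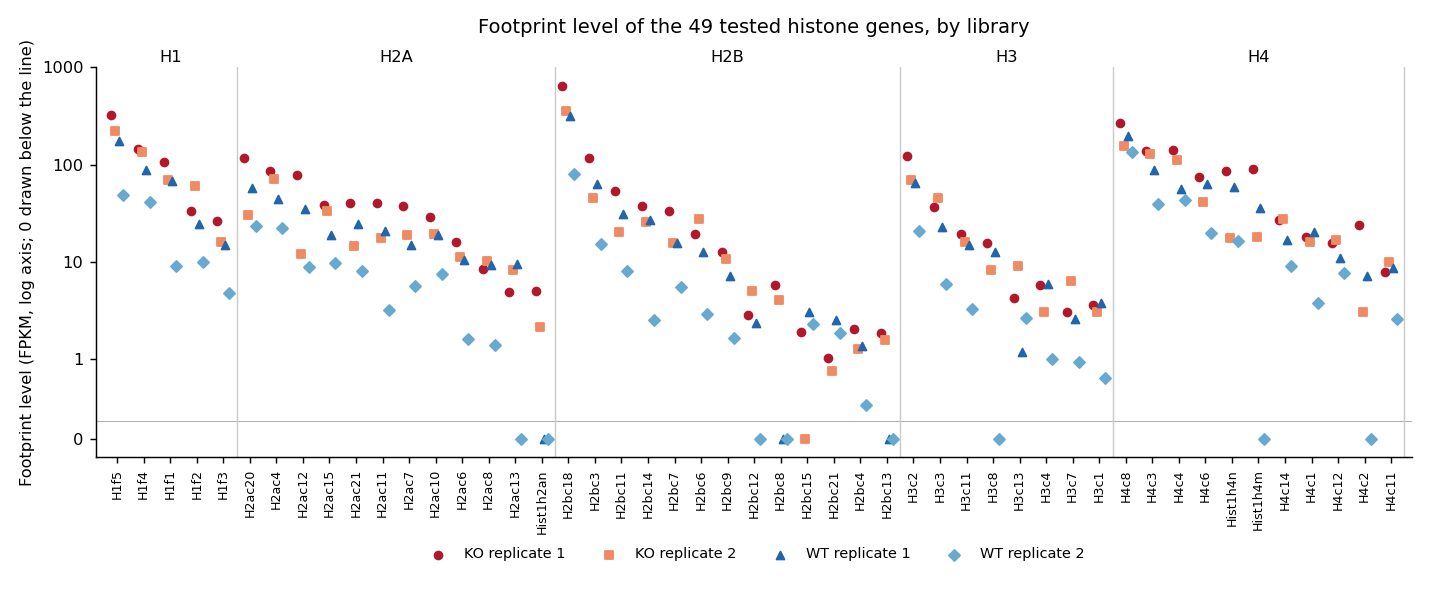
Footprint level (FPKM, log axis, with values of 0 drawn below the line) of the 49 tested histone genes, grouped by family and ordered by mean level, with 1 symbol per library. The light diamonds of WT replicate 2 lie lowest for 43 of the 49 genes, and the level spans from 652 FPKM (H2bc18, KO replicate 1) to 0.

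The linker histones formed the most uniform family. H1f5 was the highest, with 327 and 224 FPKM in KO and 177 and 49.2 FPKM in WT (log2 change 1.52, SE 0.60, adjusted p = 0.280, and a log2 change of 0.61 without WT replicate 2), and gave 51.2% and 44.3% of the H1 sum in KO and 47.4% and 43.0% in WT. H1f4 had 145 and 135 FPKM in KO and 88.9 and 41.3 FPKM in WT (log2 change 1.19, SE 0.41, adjusted p = 0.244, and a log2 change of 0.65 without WT replicate 2). H1f1 had 107 and 69.7 FPKM in KO and 67.6 and 9.09 FPKM in WT (log2 change 1.73, SE 0.88, adjusted p = 0.357, and a log2 change of 0.35 without WT replicate 2). The KO libraries lay above the WT libraries in each of these, but for H1f1 KO replicate 2 and WT replicate 1 were nearly level. H1f2 had 33.3 and 60.8 FPKM in KO and 24.7 and 10.1 FPKM in WT (log2 change 1.45, SE 0.55, adjusted p = 0.274, and a log2 change of 0.85 without WT replicate 2), and KO replicate 2 was its highest library. H1f3, the lowest H1 gene, had 26.5 and 16.0 FPKM in KO and 15.0 and 4.79 FPKM in WT (log2 change 1.17, SE 0.63, adjusted p = 0.384, and a log2 change of 0.44 without WT replicate 2). The family's median log2 change was 1.45 with all libraries and 0.61 without WT replicate 2, and all 5 genes stayed positive in that setting.

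The H2A genes, whose product pairs with H2B in the outer part of the nucleosome core, had a median log2 change of 1.19 over the 11 not kept through KO alone, and of 0.30 without WT replicate 2. H2ac20 was the highest, with 118 and 30.3 FPKM in KO and 57.7 and 23.4 FPKM in WT (log2 change 0.69, SE 0.74, adjusted p = 0.651, and a log2 change of 0.055 without WT replicate 2), and its groups overlapped. It lies on chromosome 3 beside H2ac21, which had 40.4 and 14.7 FPKM in KO and 24.7 and 8.08 FPKM in WT (log2 change 0.74, SE 0.71, adjusted p = 0.610, and a log2 change of -0.0063 without WT replicate 2). In both, KO replicate 2 read below WT replicate 1. H2ac4 had 85.8 and 72.1 FPKM in KO and 44.1 and 22.3 FPKM in WT (log2 change 1.299, SE 0.41, adjusted p = 0.229, and a log2 change of 0.82 without WT replicate 2), and H2ac15 had 38.6 and 33.2 FPKM in KO and 18.9 and 9.69 FPKM in WT (log2 change 1.34, SE 0.46, adjusted p = 0.244, and a log2 change of 0.89 without WT replicate 2). Both KO libraries exceeded both WT libraries in these genes. H2ac12 had 77.6 and 12.0 FPKM in KO and 35.3 and 8.79 FPKM in WT (log2 change 0.76, SE 1.00, adjusted p = 0.721, and a log2 change of -0.18 without WT replicate 2), so that 1 library of each group was several times the other.

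Of the lower H2A genes, H2ac11 had 40.7 and 17.5 FPKM in KO and 20.9 and 3.17 FPKM in WT. H2ac7 had 37.9 and 19.2 FPKM in KO and 14.8 and 5.61 FPKM in WT, and H2ac10 had 28.7 and 19.3 FPKM in KO and 18.9 and 7.47 FPKM in WT. H2ac7 and H2ac10 kept both KO libraries above both WT libraries, whereas H2ac11 did not. H2ac6 had 16.0 and 11.2 FPKM in KO and 10.4 and 1.63 FPKM in WT, with KO just above WT replicate 1. H2ac8 had 8.51 and 10.2 FPKM in KO and 9.29 and 1.41 FPKM in WT, and H2ac13 had 4.88 and 8.37 FPKM in KO and 9.60 and 0 FPKM in WT. In both, WT replicate 1 was above the lower KO library, and WT replicate 2 was the lowest. Hist1h2an had 4.99 and 2.14 FPKM in KO and 0 and 0 FPKM in WT (log2 change 2.12, SE 0.58, adjusted p = 0.199, and a log2 change of 2.12 without WT replicate 2), a gene that the filter kept through KO alone, with WT at 0 and hence no fold. Without WT replicate 2 the log2 change turned negative for H2ac12, H2ac21 and, with -0.51, for H2ac13.

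Among the H2B genes 1 gene dominated. H2bc18, on chromosome 3, had 652 and 359 FPKM in KO and 319 and 80.2 FPKM in WT (log2 change 1.59, SE 0.66, adjusted p = 0.295, and a log2 change of 0.60 without WT replicate 2) and gave 69.1% and 69.4% of the H2B sum in KO and 65.7% and 66.4% in WT. Its share of the family was thus nearly the same in all libraries while its level varied about as much as the family's. H2bc3 came next with 118 and 45.1 FPKM in KO and 63.0 and 15.5 FPKM in WT (log2 change 1.19, SE 0.76, adjusted p = 0.445, and a log2 change of 0.21 without WT replicate 2). H2bc11 had 53.6 and 20.5 FPKM in KO and 31.4 and 8.02 FPKM in WT, H2bc14 had 37.9 and 25.9 FPKM in KO and 27.2 and 2.51 FPKM in WT and H2bc7 had 33.4 and 15.7 FPKM in KO and 15.7 and 5.55 FPKM in WT. In H2bc3, H2bc11, H2bc14 and H2bc7 alike KO replicate 2 was below WT replicate 1, for H2bc7 by very little. H2bc6 had 19.5 and 27.6 FPKM in KO and 12.7 and 2.95 FPKM in WT (log2 change 1.72, SE 0.69, adjusted p = 0.285, and a log2 change of 0.83 without WT replicate 2), and H2bc9 had 12.5 and 10.9 FPKM in KO and 7.18 and 1.66 FPKM in WT (log2 change 1.44, SE 0.68, adjusted p = 0.335, and a log2 change of 0.63 without WT replicate 2). Both kept the KO libraries above the WT libraries. The family's median log2 change was 1.19 over the 11 not kept through KO alone, and 0.21 without WT replicate 2.

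The low H2B genes behaved in several ways. H2bc12 had 2.84 and 4.99 FPKM in KO and 2.36 and 0 FPKM in WT. H2bc8 had 5.75 and 4.03 FPKM in KO and 0 and 0 FPKM in WT (log2 change 2.54, SE 0.53, adjusted p = 0.152, and a log2 change of 2.54 without WT replicate 2), and H2bc13 had 1.87 and 1.56 FPKM in KO and 0 and 0 FPKM in WT (log2 change 1.44, SE 0.51, adjusted p = 0.257, and a log2 change of 1.44 without WT replicate 2). H2bc8 and H2bc13 were listed at 0 in both WT libraries, so no fold is given for them, and their fitted change depends on the pseudocount. H2bc4 had 2.07 and 1.28 FPKM in KO and 1.38 and 0.335 FPKM in WT (log2 change 0.57, SE 0.58, adjusted p = 0.633, and a log2 change of 0.15 without WT replicate 2). The 2 genes below WT in both KO libraries were H2bc15, with 1.89 and 0 FPKM in KO and 3.08 and 2.31 FPKM in WT (log2 change -1.11, SE 0.69, adjusted p = 0.433, and a log2 change of -1.26 without WT replicate 2), and H2bc21, with 1.04 and 0.758 FPKM in KO and 2.55 and 1.86 FPKM in WT (log2 change -0.75, SE 0.53, adjusted p = 0.483, and a log2 change of -0.91 without WT replicate 2). H2bc21 is known in mouse as an H2B variant of olfactory neurons. Neither difference passed the test.

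H3 carries the N-terminal tail with most of the known histone marks, and its genes here were led by H3c2. H3c2 had 123 and 69.1 FPKM in KO and 65.7 and 20.6 FPKM in WT (log2 change 1.298, SE 0.60, adjusted p = 0.328, and a log2 change of 0.49 without WT replicate 2), and H3c3 had 37.1 and 45.7 FPKM in KO and 22.9 and 5.97 FPKM in WT (log2 change 1.71, SE 0.64, adjusted p = 0.267, and a log2 change of 0.82 without WT replicate 2). For both genes the lower KO library was above WT replicate 1, by a small margin for H3c2. H3c11 had 19.2 and 16.1 FPKM in KO and 15.0 and 3.32 FPKM in WT, and H3c8 had 15.5 and 8.32 FPKM in KO and 12.8 and 0 FPKM in WT. H3c8 is 1 of the genes whose positive change (1.74) rested on WT replicate 2, since without it the value was -0.15. H3c13, on chromosome 3, had 4.31 and 9.09 FPKM in KO and 1.19 and 2.66 FPKM in WT (log2 change 1.37, SE 0.61, adjusted p = 0.318, and a log2 change of 1.74 without WT replicate 2), and WT replicate 1 was its lowest library. H3c7 had 3.04 and 6.37 FPKM in KO and 2.57 and 0.930 FPKM in WT, while H3c4 had 5.81 and 3.09 FPKM in KO and 6.003 and 1.01 FPKM in WT. H3c1 had 3.61 and 3.09 FPKM in KO and 3.80 and 0.635 FPKM in WT. In H3c4 and H3c1 the highest library was WT replicate 1, and without WT replicate 2 their log2 changes were -0.41 and -0.15. The family's median was 1.23, and 0.35 without WT replicate 2.

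H4, the partner of H3 in the nucleosome core, had the smallest median change of the 5 families, 0.82, and 0.18 without WT replicate 2. H4c8 was the highest, with 271 and 155 FPKM in KO and 198 and 134 FPKM in WT (log2 change 0.33, SE 0.36, adjusted p = 0.660, and a log2 change of 0.05 without WT replicate 2), and its groups overlapped, with KO replicate 2 below WT replicate 1. H4c3 had 138 and 129 FPKM in KO and 88.2 and 39.7 FPKM in WT (log2 change 1.16, SE 0.42, adjusted p = 0.258, and a log2 change of 0.60 without WT replicate 2), and H4c4 had 142 and 113 FPKM in KO and 55.8 and 43.2 FPKM in WT (log2 change 1.35, SE 0.30, adjusted p = 0.156, and a log2 change of 1.17 without WT replicate 2). H4c4 had the smallest SE of the H4 genes. H4c6 had 74.0 and 41.7 FPKM in KO and 62.9 and 20.1 FPKM in WT, H4c14 had 26.8 and 27.8 FPKM in KO and 16.9 and 9.16 FPKM in WT, and H4c12 had 15.8 and 17.0 FPKM in KO and 11.1 and 7.65 FPKM in WT. Both KO libraries exceeded both WT libraries for H4c14 and H4c12, but not for H4c6.

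Hist1h4m had 91.2 and 17.98 FPKM in KO and 36.0 and 0 FPKM in WT (log2 change 2.78, SE 1.71, adjusted p = 0.431, and a log2 change of 0.18 without WT replicate 2), and Hist1h4n had 86.9 and 17.6 FPKM in KO and 58.7 and 16.3 FPKM in WT (log2 change 0.33, SE 0.90, adjusted p = 0.876, and a log2 change of -0.56 without WT replicate 2). Summed, the pair had 178 and 35.6 FPKM in KO and 94.7 and 16.3 FPKM in WT, and the groups overlapped. The log2 change of Hist1h4m, the highest of the 49, thus went with a 0 in WT replicate 2 where its copy had 16.3 FPKM. H4c1 had 18.1 and 15.9 FPKM in KO and 20.5 and 3.82 FPKM in WT, with WT replicate 1 as its highest library. H4c2 had 23.8 and 3.10 FPKM in KO and 7.17 and 0 FPKM in WT, and H4c11 had 7.93 and 9.96 FPKM in KO and 8.73 and 2.62 FPKM in WT. For H4c1 the log2 change was 0.82 with all libraries and -0.26 without WT replicate 2, and for H4c11 it was 0.74 and 0.02.

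**Figure D3:**
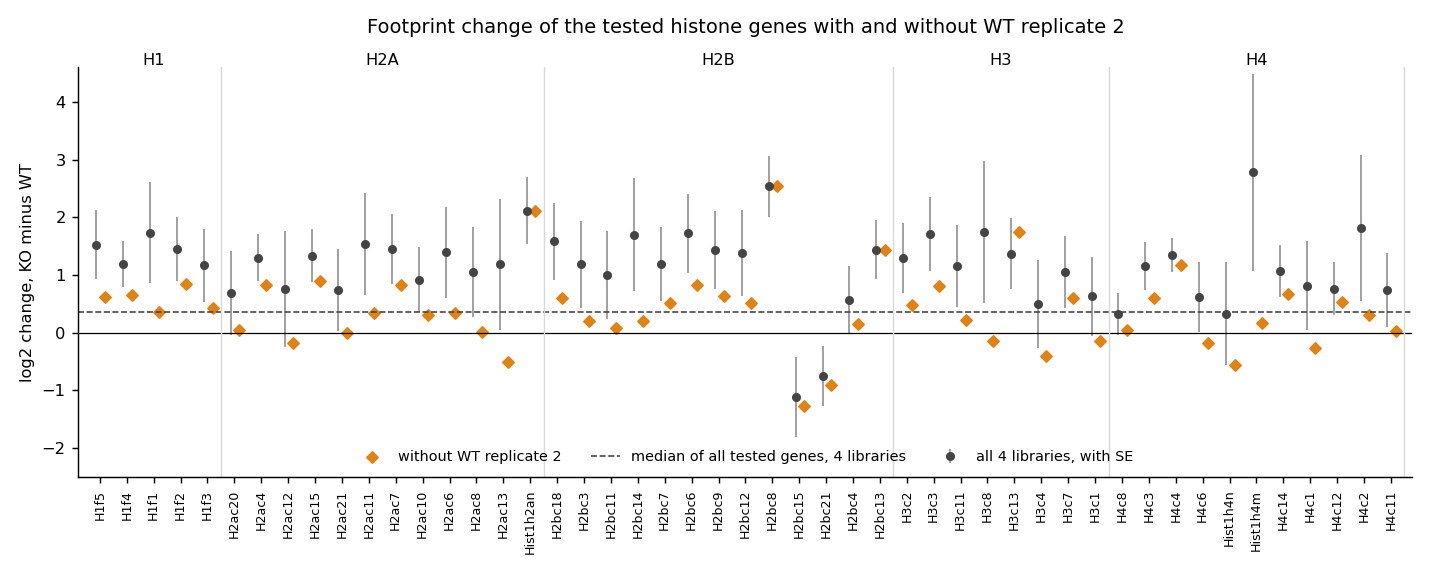
Log2 change of the footprint level, KO minus WT on the log2(FPKM + 1) scale, for the 49 tested histone genes with all 4 libraries (black points with the standard error) and without WT replicate 2 (orange diamonds). The dashed line is the median of all tested genes with all 4 libraries, 0.36, and without WT replicate 2 that median was 0.26. Most diamonds lie below their black points and nearer to these medians.

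The chromosome 13 genes summed to 2351 and 1543 FPKM in KO and 1397 and 513 FPKM in WT, with a median log2 change of 1.19, and 0.32 without WT replicate 2, over the 40 tested genes not kept through KO alone. The chromosome 3 genes summed to 842 and 442 FPKM in KO and 422 and 125 FPKM in WT, with a median of 0.91, and 0.33 without WT replicate 2, over 6 tested genes. The 2 clusters thus had the same order of libraries. In both, KO replicate 2 lay close to WT replicate 1.

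H2A and H2B genes often lie head to head and share 1 promoter region. Among the 57 genes with a listed promoter sequence, 9 such pairs had starts within 500 bases of each other. Genes without one, H2bc4 and H2bc21 among them, had no strand here and could not be paired. Footprint levels per length were alike in some of them. H2bc7 and H2ac7, with starts 174 bases apart, had mean levels that differed 1.10-fold, and H2ac11 and H2bc11, 249 bases apart, differed 1.38-fold. Others were far apart. H2ac12 was 13.1-fold above H2bc12 at a distance of 178 bases, and H2ac15 was 13.8-fold above H2bc15 at 164 bases. In the pair of H2bc1 and H2ac1, and in that of Hist1h2bq and Hist1h2ao, both genes were at 0. A shared promoter region therefore did not go with equal footprint levels in every pair, and since copies of a family can share reads, these ratios carry the same uncertainty as the single copies.

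The RNA values were missing or low for most histone genes. A TE of 0 stood beside a footprint level of at least 1 FPKM in 18 of 49 and 19 of 47 histone genes in KO (36.7% and 40.4%) and in 20 of 46 and 23 of 38 in WT (43.5% and 60.5%). The background over all tested genes was 5.47% and 6.59% in KO and 6.87% and 6.81% in WT. Such a 0 cannot be a translation efficiency of a gene with footprints, so it was treated as missing. Tested histone genes with a TE above 0 numbered 31 and 29 in KO and 26 and 18 in WT. Their median TE was 87.0 and 43.6 in KO and 49.2 and 6.19 in WT, against 3.90 and 4.74 in KO and 4.12 and 3.34 in WT for all tested genes. The median implied RNA level of the same genes was 0.291 and 0.267 FPKM in KO and 0.359 and 0.342 FPKM in WT, against 7.89 and 8.11 FPKM in KO and 6.88 and 7.51 FPKM in WT for all tested genes. The median footprint level of the 49 tested histone genes was 28.7 and 17.0 FPKM in KO and 16.9 and 4.79 FPKM in WT, against 23.3 and 28.7 FPKM in KO and 20.4 and 17.3 FPKM in WT for all tested genes. Beside these footprint levels the implied RNA level was low in all 4 libraries, and it was below 1 FPKM in 24 of 31 and 21 of 29 histone genes in KO and in 21 of 26 and 12 of 18 in WT, against 13.8% and 11.9% of tested genes in KO and 14.6% and 13.3% in WT.

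H4c4 had TE values of 1174 and 441 in KO, and of 851 and 0 in WT. The RNA level implied for H4c4 was 0.121 and 0.256 FPKM in KO and 0.0656 FPKM in WT replicate 1. H1f5 had TE values of 0 and 3134 in KO and of 1242 and 670.1 in WT, beside some of the highest histone footprint levels. H2bc18 had a TE of 2.88e+07 in KO replicate 1, with an implied RNA level of 2.26e-05 FPKM, and a TE of 0 in the other 3 libraries. Such a TE rests on an RNA level near 0, and a change in TE cannot be read from it. The preparation of the RNA libraries, poly(A) selection included, is not given in the sources used, and its part in these values was not tested.

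A few histone genes did not have this gap. H1f2 had TE values of 0.331 and 0.901 in KO and 1.15 and 0.304 in WT, and H4c8 had 4.39 and 3.61 in KO and 5.20 and 4.29 in WT. H2bc21 had TE values of 0.475 and 0.210 in KO and 0.609 and 0.470 in WT, and H2bc4 had 0.0428 and 0.0323 in KO and 0.0507 and 0.0142 in WT. Human counterparts of H1f2, H2bc4 and H2bc21 are known to be made also as polyadenylated mRNAs. H2bc6 had TE values of 6.05 and 7.22 in KO and 10.5 and 3.79 in WT. The RefSeq models of H2bc4, H2bc6 and H2bc21 span 8282, 37455 and 2667 bases, where 57 of the 64 matched genes span at most 1000, and FPKM divides by the length that the authors' annotation gives. Of the untested genes, H3c6 had TE values of 1.12 and 1.72 in KO and 0.878 and 0.692 in WT and H4c9 had 0.111 and 0.497 in KO and 0.802 and 0 in WT.

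**Figure D4:**
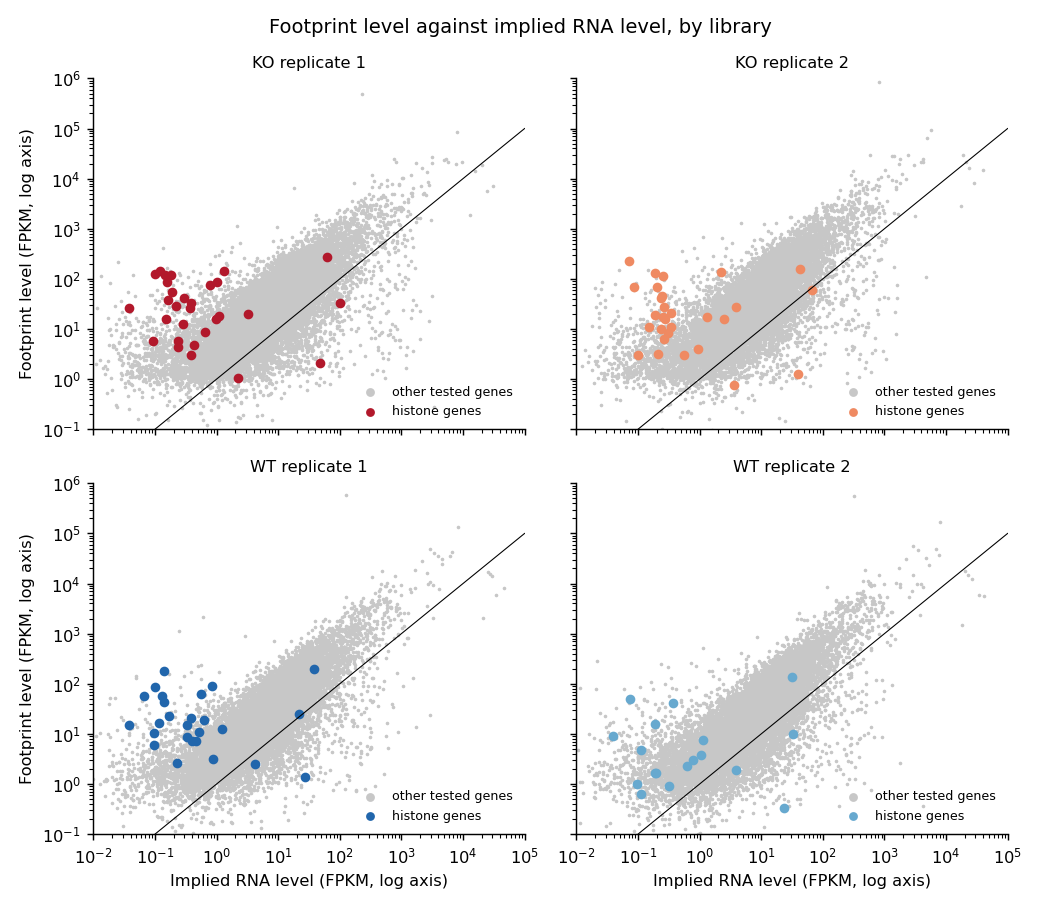
Footprint level against implied RNA level (both FPKM, log axes) for tested genes with a TE above 0, with 1 panel per library, KO above WT, the histone genes in colour, other tested genes in grey and a black line at a TE of 1. Most histone genes lie at the left edge of the grey cloud, below 1 FPKM of RNA, while H1f2, H2bc4, H2bc21 and H4c8 lie inside or below it, and H2bc18 in KO replicate 1 falls outside the axis.

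TE could be compared for 14 histone genes with a value in every library. None passed the test, and neither did any of the 12529 genes in the fit, so the background was 0.0% in each direction. At an unadjusted p under 0.05, 586 genes read higher (4.68%) and 173 lower (1.38%), among them 1 histone gene, H2bc9. H2bc9 had TE values of 44.5 and 71.1 in KO and 18.3 and 8.64 in WT (log2 change 2.16, SE 0.59, adjusted p = 0.777), and it was the only 1 of the 14 with groups that did not overlap, against 24% of genes with both KO libraries above and 12% with both below. The median log2 change in TE was -0.03 over the 14 genes, against 0.15 over all genes in the fit, and 7 of 14 were positive, against 59.5% of genes, and 7 negative, against 40.5%. Without WT replicate 2 the median was -0.61, and without WT replicate 1 it was 0.84, so 1 library decided its sign.

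The implied RNA level was higher in KO for 2 of the 14 genes, H1f2 and H2bc6 (limma on log2 of the implied RNA level, adjusted p under 0.05 over 12529 genes), and lower for none. The background was 4.2% of genes called higher and 1.53% called lower. Those were 526 and 192 genes, and after median-ratio scaling 327 and 309. H1f2 (ENSMUSG00000036181, chr13:23738807-23739531, plus strand, GRCm38.p6) had 101 and 67.6 FPKM in KO and 21.4 and 33.1 FPKM in WT (log2 change 1.63, SE 0.30, adjusted p = 0.0391). H2bc6 (ENSMUSG00000047246, chr13:23583670-23621124, minus strand) had 3.23 and 3.82 FPKM in KO and 1.20 and 0.778 FPKM in WT (log2 change 1.86, SE 0.36, adjusted p = 0.0420). Both KO libraries were above both WT libraries in each gene, and WT replicate 2 was the higher WT library for H1f2 and the lower for H2bc6. The call for H1f2 was lost without WT replicate 1 (log2 change 1.32, adjusted p = 0.0728), and that for H2bc6 after median-ratio scaling (log2 change 1.64, adjusted p = 0.0550).

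The other genes with a sizeable RNA level did not pass. H2bc4 had 48.3 and 39.6 FPKM in KO and 27.2 and 23.6 FPKM in WT (log2 change 0.79, SE 0.21, adjusted p = 0.0781), and H4c8 had 61.7 and 43.0 FPKM in KO and 38.0 and 31.1 FPKM in WT (log2 change 0.58, SE 0.25, adjusted p = 0.188). H1f4 had 1.33 and 2.23 FPKM in KO and 0.851 and 0.364 FPKM in WT (log2 change 1.63, SE 0.54, adjusted p = 0.116). In these 3 genes both KO libraries were above both WT libraries. When 1 library was left out, the log2 change ran from 0.64 to 0.93 for H2bc4, 0.32 to 0.84 for H4c8 and 1.02 to 2.25 for H1f4. H2bc21 had 2.19 and 3.61 FPKM in KO and 4.19 and 3.96 FPKM in WT (log2 change -0.54, SE 0.33, adjusted p = 0.317), the only 1 of the 14 with both KO libraries below both WT libraries. H4c1 had 1.11 and 2.48 FPKM in KO and 0.382 and 1.06 FPKM in WT, and H4c12 had 0.979 and 1.32 FPKM in KO and 0.527 and 1.15 FPKM in WT. Both had KO replicate 2 as their highest library. H1f3, H2ac6, H2bc9, H3c4, H3c7 and H4c14 all had an implied RNA level under 1 FPKM in every library.

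Over the 14 genes, the median log2 change of the implied RNA level was 0.78, against 0.22 over all genes in the fit, and 12 of 14 were positive, against 64.6% of genes. Both KO libraries exceeded both WT libraries for 7 of 14 (50.0%), against 44.2% of genes, and lay below for 1 (7.14%), against 18.6%. At an unadjusted p under 0.05, 5 of 14 read higher (35.7%), against 21.1% of genes. Without WT replicate 2 the median was 1.06, against 0.28 over all genes in the fit. These 14 genes are those with an RNA value in every library, and say nothing of the 35 tested histone genes without one.

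**Figure D5:**
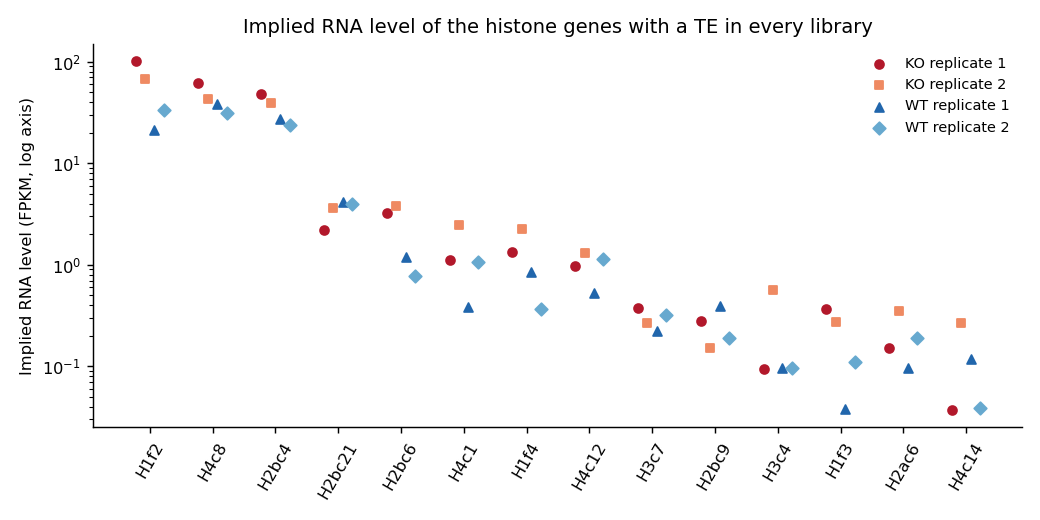
Implied RNA level (FPKM, log axis) of the 14 histone genes with a TE above 0 in all 4 libraries, ordered by mean level, with the KO libraries drawn left of the WT libraries. H1f2, H4c8 and H2bc4 are the highest genes, and both KO libraries lie above both WT libraries for 7 of the 14 genes, H1f2 and H2bc6 among them.

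Replication-independent histone variants can be made outside S phase, mostly from polyadenylated mRNAs, and H2ax is known to be made also as a stem-loop mRNA. Of 11 followed, 10 were tested, and none passed the footprint test, with a median log2 change of 0.67, and 0.17 without WT replicate 2. The implied RNA level of 2 of 9 rose in KO, against 4.2% of genes in the fit, and none fell. H2ax, the H2A variant phosphorylated at DNA breaks, had 28.7 and 26.7 FPKM in KO and 8.51 and 8.84 FPKM in WT of RNA (log2 change 1.68, SE 0.20, adjusted p = 0.0216), while its footprints read 44.3 and 34.9 in KO, against 47.7 and 20.2 in WT. H2aj had 149.8 and 69.9 FPKM in KO and 21.2 and 25.1 FPKM in WT of RNA (log2 change 2.15, SE 0.36, adjusted p = 0.0328). Of the rest, H1f0, the linker histone of resting cells, had footprints of 129.8 and 226 FPKM in KO and 109 and 58.7 FPKM in WT, Macroh2a1 had 91.7 and 111 FPKM in KO and 87.2 and 93.7 FPKM in WT, and H3f3b, 1 of the H3.3 genes, had 97.6 and 109 FPKM in KO and 58.2 and 47.9 FPKM in WT. In this list too WT replicate 2 was the lowest library for 8 genes.

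Among genes for histone mRNA transcription, processing, translation and decay, none of 15 tested passed the footprint test, the median log2 change was 0.32, and 0.18 without WT replicate 2, and Zfp473 was listed at 0 in every library. Slbp, which binds the histone stem-loop, had 106 and 80.7 FPKM in KO and 102 and 61.1 FPKM in WT (log2 change 0.22, SE 0.35, adjusted p = 0.769). In implied RNA level 1 of 15 rose, against 4.2% of genes in the fit: Lsm1, part of a cytoplasmic ring that promotes mRNA decay, had 7.88 and 6.13 FPKM in KO and 3.05 and 2.92 FPKM in WT (log2 change 1.22, SE 0.26, adjusted p = 0.0494). Of the rest, the highest in footprints were Srrt with 123 and 137 FPKM in KO and 155 and 109 FPKM in WT, the processing nuclease Cpsf3 with 74.9 and 199 FPKM in KO and 119.8 and 108 FPKM in WT, and the scaffold Sympk with 91.8 and 124 FPKM in KO and 88.9 and 73.9 FPKM in WT. The groups overlapped for Srrt and Cpsf3, and KO was above WT for Sympk.

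Histone chaperones carry new histones to DNA. None of 14 tested passed the footprint test, and the median log2 change was 0.55, and 0.34 without WT replicate 2. Chaf1b, a subunit of the chromatin assembly factor that works behind the replication fork, was the 1 gene of 14 whose implied RNA level rose, against 4.2% of genes in the fit, with 4.06 and 3.13 FPKM in KO and 0.968 and 1.02 FPKM in WT (log2 change 1.84, SE 0.32, adjusted p = 0.0355). Its footprints read 31.4 and 11.4 in KO, against 6.77 and 5.11 in WT. The highest of the rest were Nap1l4, with footprints of 549 and 475 FPKM in KO and 620.0 and 528 FPKM in WT, Rbbp4, with 294 and 359 FPKM in KO and 340.5 and 214 FPKM in WT, and Rbbp7, with 243 and 263 FPKM in KO and 262 and 335 FPKM in WT. The groups overlapped in each of these 3 genes.

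WT replicate 2 was also the lowest library in footprints of cell cycle genes. The 21 S phase genes summed to 1231 and 1084 FPKM in KO and 1205 and 519 FPKM in WT, and the 10 genes of G2 and mitosis to 713 and 624 FPKM in KO and 579.9 and 165 FPKM in WT. It was the lowest library for 17 of the 21 and for 10 of the 10. No gene of either list passed the footprint test. The median log2 change was 0.60 for the S phase genes and 0.99 for those of G2 and mitosis, and without WT replicate 2 it was 0.01 and 0.24. The part of these cell cycle levels in the histone values was not tested.

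In implied RNA level 6 of 21 S phase genes rose in KO, namely Mcm3, Mcm5, Rrm1, Rrm2, Tyms and Prim1, and none fell, against 4.2% of genes in the fit called higher and 1.53% called lower. Tyms, which makes thymidylate, had 11.8 and 8.78 FPKM in KO and 1.78 and 2.44 FPKM in WT (log2 change 2.29, SE 0.30, adjusted p = 0.0231), and Rrm2, a subunit of ribonucleotide reductase, had 9.002 and 10.2 FPKM in KO and 4.43 and 4.33 FPKM in WT (log2 change 1.13, SE 0.23, adjusted p = 0.0463). Mcm5, of the replicative helicase, had 7.99 and 7.95 FPKM in KO and 2.96 and 3.31 FPKM in WT (log2 change 1.35, SE 0.24, adjusted p = 0.0381). Of the rest, Pcna, the sliding clamp, had 48.7 and 36.1 FPKM in KO and 21.5 and 24.4 FPKM in WT (log2 change 0.87, SE 0.23, adjusted p = 0.0750), and Mcm6 and Cdk2 had adjusted p = 0.0524 and 0.983. Of the G2 and mitosis genes 8 of 10 rose, namely Top2a, Ccna2, Ccnb1, Cdk1, Aurkb, Plk1, Birc5 and Cdc20, and none fell, beside the same background. Cdk1, the kinase that drives mitosis, had 22.7 and 29.7 FPKM in KO and 6.04 and 7.34 FPKM in WT (log2 change 1.96, SE 0.24, adjusted p = 0.0217), and Top2a, the topoisomerase that untangles chromosomes, had 15.7 and 21.2 FPKM in KO and 4.29 and 5.74 FPKM in WT (log2 change 1.88, SE 0.27, adjusted p = 0.0261). The other 2 genes, Bub1 and Mki67, had adjusted p = 0.0727 and 0.0707. WT replicate 2 was the higher WT library in the RNA levels of Cdk1 and Top2a, whereas in footprints it was the lower for Cdk1 (152 and 115 in KO, against 127 and 36.4 in WT FPKM) and for Top2a (260.0 and 279.9 in KO, against 222 and 54.8 in WT FPKM).

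Markers of the cell types in the heart differed between the libraries as well. Cardiomyocyte markers summed to 148376 and 156085 FPKM in KO and 229819 and 277816 FPKM in WT. Fibroblast markers (Col1a1, Col1a2, Pdgfra, Tcf21, Dcn, Lum) summed to 22910 and 28538 FPKM in KO and 9886 and 7735 FPKM in WT, endothelial markers to 1881 and 2738 FPKM in KO and 1637 and 1425 FPKM in WT, and macrophage markers to 659 and 1497 FPKM in KO and 413 and 617 FPKM in WT. Erythroid markers summed to 1497 and 726 FPKM in KO and 1250.2 and 1029 FPKM in WT, and lymphocyte markers to 23.4 and 9.83 FPKM in KO and 23.7 and 8.10 FPKM in WT. No marker of these lists was at 0 in all libraries, and no marker passed the footprint test.

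Some of the markers did pass in implied RNA level, where the background was 4.2% of genes called higher. Of the fibroblast markers 1 of 6 rose in KO: Tcf21 had 45.5 and 29.7 FPKM in KO and 11.1 and 11.9 FPKM in WT (log2 change 1.68, SE 0.26, adjusted p = 0.0291). Of the macrophage markers 2 of 6 rose: Lyz2 had 100.4 and 76.9 FPKM in KO and 35.6 and 30.03 FPKM in WT (log2 change 1.43, SE 0.23, adjusted p = 0.0303), and C1qa had 59.4 and 46.5 FPKM in KO and 24.9 and 26.1 FPKM in WT (log2 change 1.04, SE 0.22, adjusted p = 0.0463). In each of these 3 genes both KO libraries were above both WT libraries. No cardiomyocyte, endothelial, erythroid or lymphocyte marker passed. The median log2 change of the implied RNA level was 0.66 for the fibroblast, 0.75 for the macrophage, -0.77 for the cardiomyocyte and 0.54 for the erythroid markers, against 0.22 over all genes in the fit. For the endothelial markers it was -0.005, and for the 2 lymphocyte markers in the fit it was 0.73. The part of these cell types in the histone values was not tested.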

How the data were processed

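The 2 KO and 2 WT ribosome profiling libraries of heart tissue were used. The first deposited table holds footprint FPKM per Ensembl gene, made by the authors, and the second holds TE, a ratio of footprint FPKM to RNA FPKM that the authors formed. The submitters' processing notes name STAR 2.7.4a, Bowtie 1.3.1, HTSeq 0.13.5 with Cufflinks 2.2.1, cutadapt 3.7 and FastQC 0.11.9, and GRCm38 (mm10). Settings are not given in the sources used. FPKM over TE gave the implied RNA level, and all quotients came out with at most the 6 digits of a deposited value. A TE of 0 was treated as missing.

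Genes with at least 1 FPKM in at least 2 of 4 libraries were tested with limma 3.58.1 (R 4.3.3, trend, two-sided) on log2(FPKM + 1), so fold changes of low genes are understated. log2(TE) and log2 of the implied RNA level were fitted for genes with a TE in all 4 libraries. Benjamini-Hochberg adjustment ran over all genes of each fit. The fits were run on simulated data with less spread between libraries than the histone genes had, so that run does not show their power here. Every histone gene past the filter is named. In the other histone and cell cycle lists genes past a test and the 3 highest of the rest in footprints are named, and of the cell type markers those past a test. The members and lists were chosen with earlier results of these data known. Other pseudocounts, filters, scaling, a replicate block and leaving out each library were tried. Depth in reads is unknown, so no counting intervals are given.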

Additional observations from a re-analysis of the deposited data

How the results depend on the processing

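No histone gene passed the footprint or TE test in any setting tried. At an unadjusted p under 0.05, 1 to 26 of the 46 histone genes not kept through KO alone passed for footprints (fewest without KO replicate 2 or WT replicate 2, most without WT replicate 1), and 0 to 3 histone genes for TE. Leaving out the genes kept through 1 group alone was chosen after seeing the data, and the median footprint change was 1.19 with them as well. Over all genes, footprint calls numbered 57, and 34 with a pseudocount of 0.1, 8 with no filter, 202 without small RNA genes and unnamed models, 143 with the replicate block (replicate number as a covariate), and 0 whichever library was left out (limma, with 1010 to 2497 genes at an unadjusted p under 0.05). TE calls over all genes numbered 0, and 1 with an implied RNA level of at least 1 FPKM, 178 with the replicate block and 0 to 33 when a library was left out. Implied RNA calls over all genes numbered 718, and 1429 with the replicate block and 704 to 3742 when a library was left out. Among the histone genes there were 2, 1 after median-ratio scaling and 2 to 4 when a library was left out. With the block, 0 histone genes passed for footprints and TE and 2 for implied RNA. Same-numbered libraries did not deviate together (r = -0.06 for footprints, -0.02 for TE, -0.22 for RNA), and the labels do not say that numbers pair hearts.

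After median-ratio scaling the median footprint change was 0.83 over the 46 histone genes and 0.02 over the 14395 genes kept likewise. Of the histone genes 42 of 46 were positive, again without the share over all genes. The footprint change of H4c8 turned to -0.040 and that of Hist1h4n to -0.026, and the TE change of H2bc6 turned to -0.080. Leaving out a library, the log2 ratio of the family sums ran from 0.62 to 2.32 for H1, 0.49 to 2.04 for H2A, 0.59 to 2.59 for H2B, 0.52 to 2.41 for H3 and 0.36 to 1.39 for H4. The ratio was highest without WT replicate 1 in every family. It was lowest without KO replicate 1 for H2A and without WT replicate 2 for the other families. The median implied RNA change ran from 0.65 to 1.36. Footprint changes that changed sign ran from -0.27 to 1.65 (H2ac20), -0.53 to 2.06 (H2ac12), -0.0063 to 1.49 (H2ac21), -0.51 to 2.89 (H2ac13), -0.15 to 3.63 (H3c8), -0.41 to 1.39 (H3c4), -0.15 to 1.41 (H3c1), -0.069 to 0.73 (H4c8), -0.18 to 1.42 (H4c6), -0.79 to 1.45 (Hist1h4n) and -0.26 to 1.90 (H4c1). TE changes did so from -1.08 to 0.84 (H1f2), -2.60 to 0.60 (H1f3), -0.90 to 2.75 (H2ac6), -0.67 to 0.80 (H2bc6), -0.45 to 1.39 (H2bc4), -2.21 to 1.28 (H3c4), -0.83 to 1.95 (H4c14), -2.39 to 1.51 (H4c1) and -0.54 to 1.12 (H4c12). Implied RNA changes did so from -0.92 to 0.11 (H2bc9), -0.035 to 2.54 (H3c4), -0.022 to 0.50 (H3c7), -0.84 to 1.99 (H4c14) and -0.023 to 1.11 (H4c12). Of the settings tried for single genes, 465 of 480 kept direction and side of the threshold for footprints, 78 of 92 for TE and 78 of 92 for implied RNA. The footprint count includes H2bc8, H2bc13 and Hist1h2an, whose direction the filter set. No histone gene passed for footprints or TE in any setting, so only the direction could differ in those counts. The cause of these shifts was not tested. Copies that share reads, 2 libraries a group and an unknown read depth limit every value.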
